A study of Mus musculus with 18 samples.

Results

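The late neutrophil granule and S100 genes examined here were Ltf, Camp, Ngp, Lcn2, S100a8, S100a9, Mmp8, Mmp9, Retnlg and Chil3, chosen by symbol and followed in every sample, and they were 10 of the 19780 genes in the table of LSK cells. LSK are Lin-Sca-1+c-Kit+ bone marrow stem and progenitor cells, and the second population was the common myeloid progenitor (CMP), whose table of 18428 genes lists 9 of the 10. Chil3 was not analysed in CMPs. The study sequenced RNA of female NZBW/F1 mice, a hybrid strain that develops lupus spontaneously, and of female C57BL/6 control mice. F1-P were prediseased NZBW/F1 mice of 12 weeks and F1-L were NZBW/F1 mice with proteinuria at 28 to 36 weeks. B6-Y and B6-O were C57BL/6 mice of the same 2 age windows, 12 weeks and 28 to 36 weeks. Each LSK group had 3 samples, 12 in all, and CMPs were profiled in 3 F1-L and 3 F1-P samples, without C57BL/6 CMPs. Within NZBW/F1, age and disease cannot be told apart.

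Neutrophils fill their granules in a fixed order as they mature in the marrow. Primary granule proteases are made first, specific (secondary) granule proteins follow at the myelocyte stage, and gelatinase granule proteins come after them, under C/EBP and PU.1 family transcription factors. Ltf (lactoferrin, an iron binder), Camp (the cathelicidin antimicrobial peptide), Ngp (neutrophilic granule protein) and Lcn2 (lipocalin 2, which binds bacterial siderophores) belong to the specific granule. Mmp8 is the neutrophil collagenase and Mmp9 the gelatinase B of the gelatinase granule. S100a8 and S100a9 form calprotectin, the calcium-binding complex of the neutrophil cytosol, Retnlg encodes a resistin-like secreted protein, and Chil3 (Ym1) encodes a chitinase-like lectin.

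The genes lie on 4 chromosomes, with Mmp8, Camp, Ngp and Ltf on chromosome 9 and S100a8, S100a9 and Chil3 on chromosome 3 (GRCm38). S100a8 (chr3:90668978-90670035, plus strand) and S100a9 (chr3:90692632-90695721, minus strand) lie close together and are transcribed towards each other, and no other annotated gene overlaps any of the 10 on either strand. Promoter windows from RefSeq (build GRCm38.p6, the C57BL/6J reference), 250 bases before to 50 after the start, were found for 9 of the 10, and Mmp9 was not matched. Those of Ngp, S100a9, S100a8 and Chil3 are shown because the first 3 held the largest shares of the signal described below and Chil3 parted from them between strains. Capitals mark TTNNGCAA, a C/EBP-type motif, and GAGGAA, a PU.1-type motif, searched on both strands (TTGCNNAA and TTCCTC on the strand shown), and no hit of one overlapped a hit of the other.
Ngp, chr9:110419558-110419857, plus strand: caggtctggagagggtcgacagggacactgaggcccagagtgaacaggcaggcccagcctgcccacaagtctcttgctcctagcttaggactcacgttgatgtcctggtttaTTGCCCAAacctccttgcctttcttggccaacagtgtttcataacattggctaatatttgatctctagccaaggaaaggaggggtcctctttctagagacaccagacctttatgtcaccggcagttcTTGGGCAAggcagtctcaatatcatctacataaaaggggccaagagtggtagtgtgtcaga
S100a9, chr3:90695672-90695971, minus strand: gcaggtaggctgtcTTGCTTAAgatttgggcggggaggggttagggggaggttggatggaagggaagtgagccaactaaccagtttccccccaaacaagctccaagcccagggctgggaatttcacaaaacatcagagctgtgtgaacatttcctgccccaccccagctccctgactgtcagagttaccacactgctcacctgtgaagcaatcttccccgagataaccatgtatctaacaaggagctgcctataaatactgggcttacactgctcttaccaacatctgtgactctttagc
S100a8, chr3:90668821-90669120, plus strand: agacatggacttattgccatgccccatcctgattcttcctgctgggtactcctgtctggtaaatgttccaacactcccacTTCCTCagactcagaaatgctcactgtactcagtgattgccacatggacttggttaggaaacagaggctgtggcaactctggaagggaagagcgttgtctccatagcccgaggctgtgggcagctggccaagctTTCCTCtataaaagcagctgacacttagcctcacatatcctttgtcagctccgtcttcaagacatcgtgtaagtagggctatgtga
Chil3, chr3:106167515-106167814, minus strand: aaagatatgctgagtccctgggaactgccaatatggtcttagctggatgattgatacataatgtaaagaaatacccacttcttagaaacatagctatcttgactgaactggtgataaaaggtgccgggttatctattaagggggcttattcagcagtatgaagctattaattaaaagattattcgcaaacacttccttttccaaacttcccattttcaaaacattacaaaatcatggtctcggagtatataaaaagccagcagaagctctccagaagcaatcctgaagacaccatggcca
The Ngp window held TTNNGCAA at 2 places, 138 and 11 bases before the start. In S100a9 it began 236 bases before the start, and S100a8 held GAGGAA alone, at 170 and 36 bases before it. Neither motif was present in the Chil3 or Camp window. Of the 9 windows, 6 held TTNNGCAA and 4 held GAGGAA, beside 10.8% and 28.3% of 32851 promoter windows of the same length. A match of letters is not a bound site.

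Depth was 23772252 to 28493747 reads per LSK library and 20001328 to 24761060 per CMP library, as recovered from the deposited values. All values below are CPM values, read counts per scaled library size, and are comparable within the LSK table and within the CMP table, each normalised on its own. Nothing in the labels says that replicates came from separate mice, so p-values measure the spread between these samples only. The LSK gate excluded CD11b, Gr-1 and CD16/32 positive cells. Kit was 257 to 657 in LSK and 416 to 668 in CMPs. Ly6a, the gene of Sca-1, was 293 to 879 in F1 LSK and 35.5 to 113 in B6 LSK, without overlap between strains. In CMPs it was 1.14 to 6.70, although the gate as written for CMPs includes Sca-1. Immunoglobulin genes took 16.8 to 36.6% of the reads of F1 LSK and 0.301 to 4.76% of those of B6 LSK, and the libraries of a group differed from each other well beyond counting noise (chi-square per degree of freedom 9.87 to 230).

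The 9 genes other than Chil3 had reads in every LSK and CMP library, although the sort gated against granulocytes. Their level differed more between single libraries than between most groups. In LSK their summed CPM value was 12251, 4871 and 1965 in F1-L 1 to 3 and 297, 519 and 1266 in F1-P 1 to 3. In C57BL/6 it was 495, 5401 and 482 in B6-Y 1 to 3 and 1723, 825 and 10668 in B6-O 1 to 3. F1-L 1, B6-O 3 and B6-Y 2 were thus the 3 highest LSK libraries, 1 in each of 3 groups, and F1-P 1 the lowest. In F1-L 1 the 9 genes took 1.22% of all reads, against 0.0279% in F1-P 1. In CMPs the sum was 310, 6381 and 8346 in F1-P 1 to 3 and 81.5, 62.7 and 425 in F1-L 1 to 3. F1-P 2 and F1-P 3 stood far above the 4 other CMP libraries, and F1-P 1 lay below F1-L 3.

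**Figure D1:**
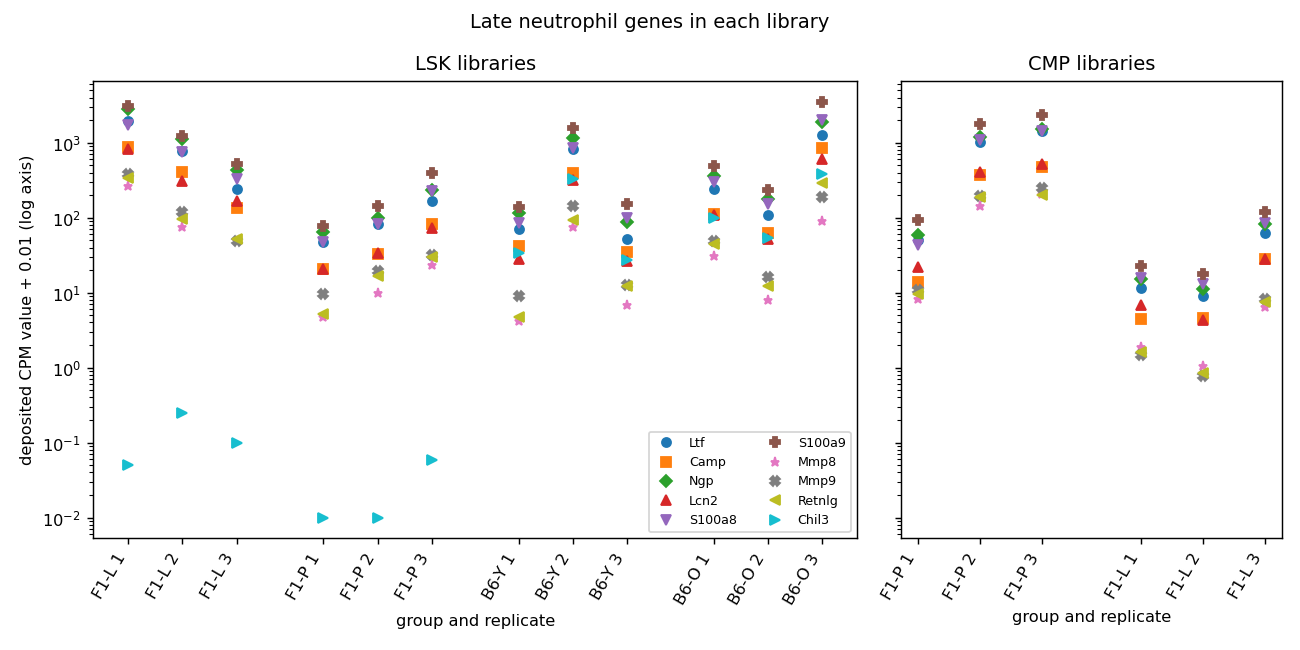
CPM value plus 0.01 (log axis) of each late neutrophil gene in each library, LSK on the left and CMP on the right, with 1 point per gene and library. F1-L 1, B6-Y 2 and B6-O 3 lie high in LSK and F1-P 2 and 3 in CMPs, while Chil3 lies at or below 0.239 in all 6 F1 LSK libraries.

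The make-up of this signal hardly moved while its size did. Over the 12 LSK libraries the sum ranged 41.2-fold, yet the share of Ngp in it stayed between 17.7% and 23.1% and that of S100a9 between 25.0% and 32.9%. In the 6 CMP libraries the sum ranged 133-fold, with Ngp at 17.7 to 19.1% and S100a9 at 27.7 to 30.3%. The least steady shares were those of Retnlg and Mmp8 in LSK, which ranged 3.34-fold and 2.92-fold, and of Mmp9 in CMPs, which ranged 2.87-fold. S100a9 was 1.5 to 1.84 times S100a8 in LSK and 1.37 to 2.18 times in CMPs. Within CMPs that ratio was 1.65 to 2.18 in F1-P and 1.37 to 1.45 in F1-L. Camp was 31.2 to 44.8% of Ngp in LSK and 23.9 to 40.9% in CMPs. Across the 12 LSK libraries, each of the 9 genes followed the mean of the other members, Chil3 included. Pearson r was 0.913 (Mmp8) to 0.989 (S100a9) on the log2 scale, and 0.163 for Chil3 itself. These values are a description over libraries that share their scaling.

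**Figure D2:**
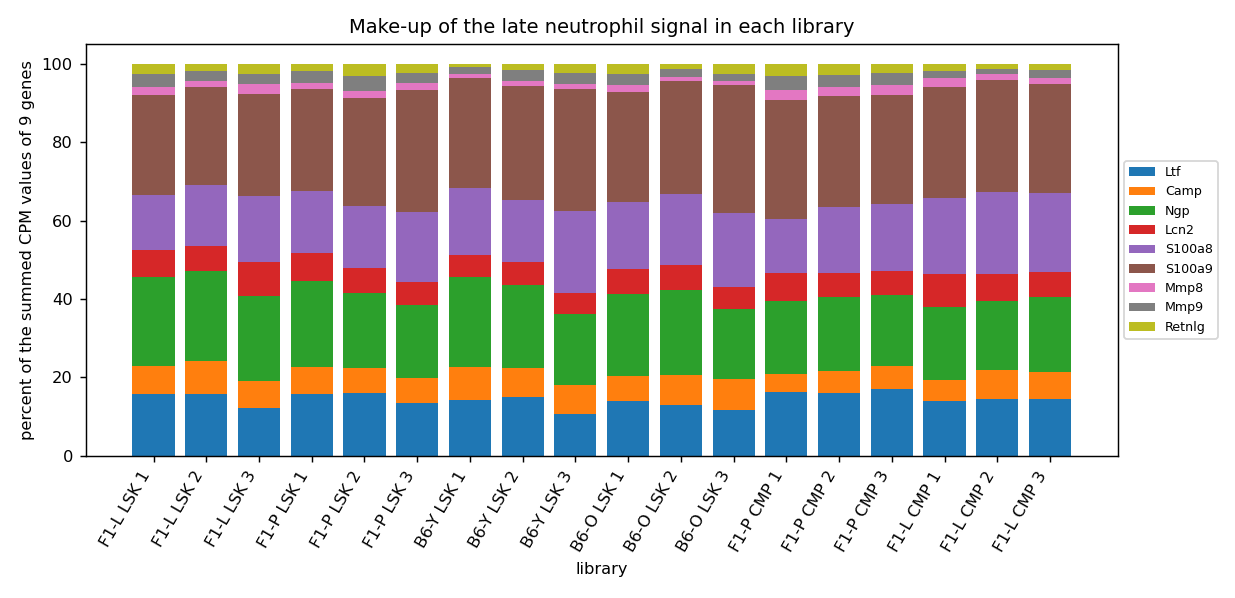
Share of each of 9 late neutrophil genes in their summed CPM value (percent, stacked bars) for each of the 18 libraries. The bars look alike although the sums behind them differ 41.2-fold in LSK and 133-fold in CMPs; S100a9 holds 25.0 to 32.9% in LSK.

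Per kilobase of exon the order of levels was similar everywhere. S100a9 came first, then S100a8, Ngp and Camp, in this order within each of the 18 libraries. In F1-L LSK their mean CPM value per kilobase was 3089 ± 2566, 1359 ± 1042, 1184 ± 992 and 621 ± 490 (SD, n = 3). Ltf at 284 ± 252 and Retnlg at 273 ± 259 followed, with Retnlg above Ltf in 2 of the 3 libraries. Lcn2 was at 166 ± 132, Mmp8 at 53.8 ± 49.5 and Mmp9 at 51.4 ± 49.1. The ranges of all neighbours in this order overlapped between libraries, so the order holds within a library rather than across them. Chil3 ranked sixth by mean in B6-Y (79.6 ± 105) and seventh in B6-O (109 ± 109), just below Ltf in both, and last in F1-L (0.0753 ± 0.0633) and F1-P (0.00992 ± 0.0172).

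The first comparison asked whether LSK of mice with lupus differ from those of prediseased mice. All 9 genes had higher values in every F1-L sample than in any F1-P sample, by a median of 3.01 on the log2 scale (8.06-fold), but none passed an adjusted p of 0.05 with limma. Among all 14332 genes tested, 10.4% showed such higher, non-overlapping groups and the median log2 fold change was -0.010. Members passing the limma thresholds (fold change over 1.5 with an adjusted p no higher than 0.05) numbered 0 of 9, beside 0.0279% of all genes. At an unadjusted p under 0.05, 9 of 9 were higher, beside 8.58% of all genes. The edgeR quasi-likelihood test on recovered reads called 0, while the edgeR likelihood ratio test and DESeq2 each called 9 higher, beside 3.45% and 3.77% of all genes.

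Among the specific granule genes, Ngp was 2789, 1121 and 430 in F1-L and 65.3, 99.5 and 236 in F1-P. The lowest F1-L sample exceeded the highest F1-P sample, and within each group the values spread widely. The log2 fold change was 3.25 (SE 0.72; limma adjusted p = 0.178, edgeR likelihood ratio adjusted p between 0.000433 and 0.0105 over the 9 genes). Ltf was 1937, 768 and 238 against 46.9, 83.5 and 169, a log2 fold change of 3.01 (SE 0.78). Camp, at 869, 408 and 135 against 20.5, 32.4 and 82.3, gave 3.22 (SE 0.74). Lcn2 had the smallest limma p of the members, and its values were 826, 310 and 167 against 20.8, 33.4 and 72.9. Its log2 fold change was 3.20 (SE 0.64, limma adjusted p = 0.172).

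The calprotectin genes showed the same order of libraries. S100a8 was 1741, 759 and 330 in F1-L and 47.4, 82.2 and 227 in F1-P, a log2 fold change of 2.97 (SE 0.73). S100a9 was 3105, 1218 and 515 against 77.2, 142 and 393, a log2 fold change of 2.93 (SE 0.77). For both, F1-L 3 lay only a little above F1-P 3, while the other F1-L libraries stood well clear. Of the proteases, Mmp8 was 268, 74.7 and 48.5 against 4.70, 9.86 and 23.6, and Mmp9 was 379, 118 and 49.4 against 9.48, 19.4 and 31.5. Mmp9 had the smallest difference of the 9, 2.78 (SE 0.74, limma adjusted p = 0.205). Retnlg was 337, 95.7 and 52.2 against 5.24, 16.6 and 30.3, with a difference of 3.00 (SE 0.79). In all 9 the highest F1-L value was that of library 1 and the highest F1-P value that of library 3.

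The likelihood ratio calls changed most when F1-P 2 was left out. Without F1-P 2 only Lcn2 of the 9 was still called by that test, without F1-L 1 or F1-P 1 it called 8 (all but S100a9), and without any other library 9. In these reduced fits it called 0.840 to 4.20% of all genes higher. The limma count was 0 whichever library was left out, and the limma median was 2.37 without F1-L 1, 2.56 without F1-P 1, 3.58 without F1-P 3 and 3.63 without F1-L 3.

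**Figure D3:**
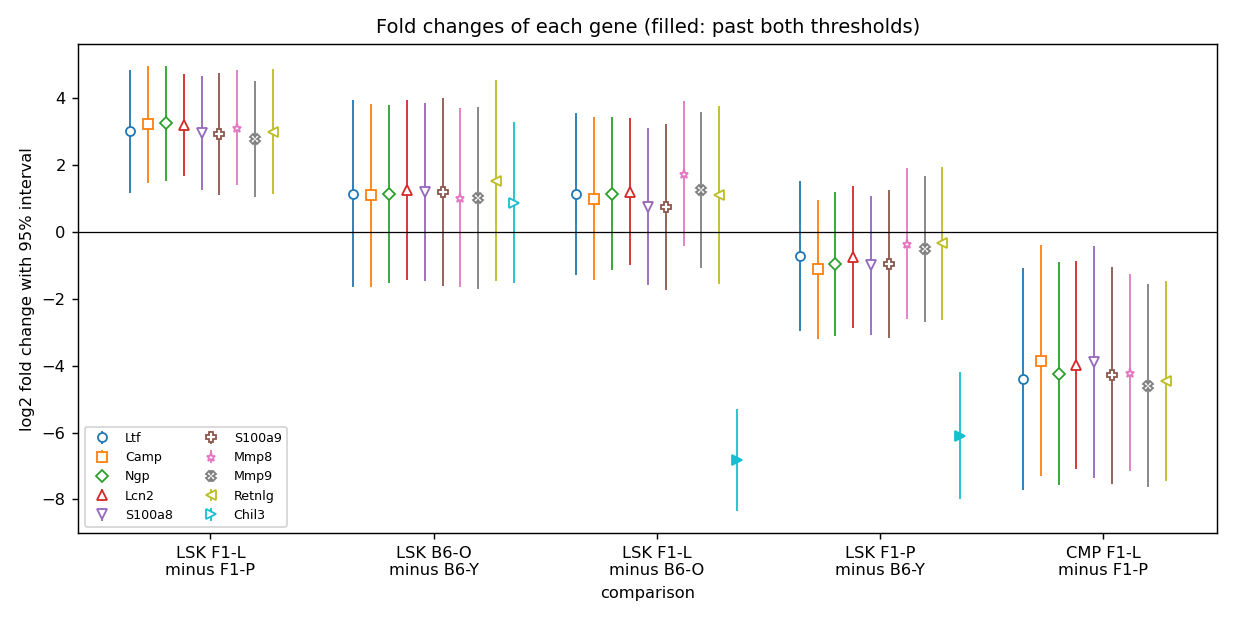
Log2 fold change (points) with its 95% limma interval (lines) of each late neutrophil gene in 5 comparisons of groups of 3 samples; filled symbols passed both thresholds. The 9 genes tested lie at 2.78 to 3.25 for LSK F1-L against F1-P and at -4.60 to -3.85 for CMPs, and Chil3 alone is filled, at -6.83 and -6.09 between strains.

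In C57BL/6 LSK, the comparison of B6-O with B6-Y asked about age without lupus. All 10 members had a positive log2 fold change, from 0.88 (Chil3) to 1.54 (Retnlg) with a median of 1.14, and standard errors of 1.03 to 1.29. None passed the limma thresholds, beside 0% of the 14005 genes tested, none had an unadjusted p under 0.05, where 927 genes did, and none was called by the edgeR tests or DESeq2. S100a9 was 485, 237 and 3506 in B6-O and 139, 1564 and 150 in B6-Y. The groups overlapped for every member, with 1 high library in each. The median was 2.29 without B6-Y 2 and 1.91 without B6-O 2, but 0.61 without B6-Y 1, 0.55 without B6-Y 3 and 0.15 without B6-O 3. For S100a9 the 95% interval of the log2 difference was -1.61 to 4.02, wide enough to hold the difference seen in NZBW/F1.

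The change from F1-P to F1-L was compared with that from B6-Y to B6-O as a difference of differences. It was 1.45 to 2.12 on the log2 scale for the 9 genes other than Chil3, with standard errors of 1.49 to 1.70 and limma adjusted p-values all at 0.976. No member passed the thresholds, beside 0% of 15084 genes, and none had an unadjusted p under 0.05, where 591 genes did. The edgeR tests and DESeq2 called no member either. The median of the 10 members, 1.81, was 0.66 without B6-Y 2, 1.03 without B6-O 2, 1.15 without F1-L 1 and 2.84 without B6-O 3. A difference between the strains was not detectable at this spread between samples.

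Between strains, the 9 genes did not separate either. At 28 to 36 weeks, F1-L against B6-O, their log2 fold changes were 0.76 to 1.75 (limma adjusted p = 0.264 to 0.672) with overlapping groups. At 12 weeks, F1-P against B6-Y, they were -1.12 to -0.34 (limma adjusted p = 0.452 to 0.852), also with overlap. The second median turned with 1 library: over the members tested it was -0.85 with all samples, 0.43 without B6-Y 2, -0.38 without F1-P 1, -1.34 without F1-P 3, -1.30 without B6-Y 1 and -1.45 without B6-Y 3. The first was 1.13 with all samples, 0.36 without B6-O 2, 0.40 without F1-L 1, 1.73 without F1-L 3 and 2.13 without B6-O 3. These medians are over 10 members, but over the 9 without Chil3 wherever a B6 library was left out. With all samples, the median of the 9 genes alone was -0.74 for F1-P against B6-Y and 1.14 for F1-L against B6-O. These comparisons share their groups with the ones above, so they are not independent of them.

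Chil3 was the exception. It had 1, 6 and 2 reads in F1-L 1 to 3 and 0, 0 and 1 in F1-P 1 to 3. In C57BL/6 it had 1100, 9712 and 803 reads in B6-Y and 3192, 1678 and 11373 in B6-O, that is CPM values of 34.1, 328 and 27.6 and of 99.3, 53.0 and 380. No F1 library came near a B6 library. Chil3 was the single member of 10 past the limma thresholds in F1-L against B6-O (adjusted p = 0.000967), beside 11.6% of 14381 genes in either direction. It was again the single one in F1-P against B6-Y (limma adjusted p = 0.0023), beside 16.2% of 14380 genes. Genes were tested if they reached a value of 1 in 3 samples, and Chil3 did so only through the 3 B6 libraries. These calls are therefore no separate support for the difference in reads. Because the F1 values lie near 0, the fold was taken from the reads. Summed over libraries and scaled, B6-O exceeded F1-L 1394-fold (95% exact interval 734 to 3049, counting error only), from 16243 against 9 reads. B6-Y exceeded F1-P 7915-fold (1420 to 312644), from 11615 reads against 1.

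Within C57BL/6, Chil3 moved with the other members. It was 28.6 to 31.8% of the Ngp value in B6-Y and 20.1 to 29.5% in B6-O, and over the 6 B6 libraries its log2 value followed the mean of the other 9 with r = 0.989. In F1-L it was 0.00144 to 0.0213% of Ngp and in F1-P at most 0.0206%. F1-L 1, the library with the highest Ngp value of all, 2789, held 1 read of Chil3. Chil1 (BRP-39), a chitinase-like paralogue on another chromosome, was present in both strains. It was 4.15 to 6.48% of Ngp in F1-L and 4.93 to 5.87% in F1-P, above the 2.09 to 2.93% in B6-Y and 1.87 to 2.37% in B6-O, without overlap between strains.

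**Figure D4:**
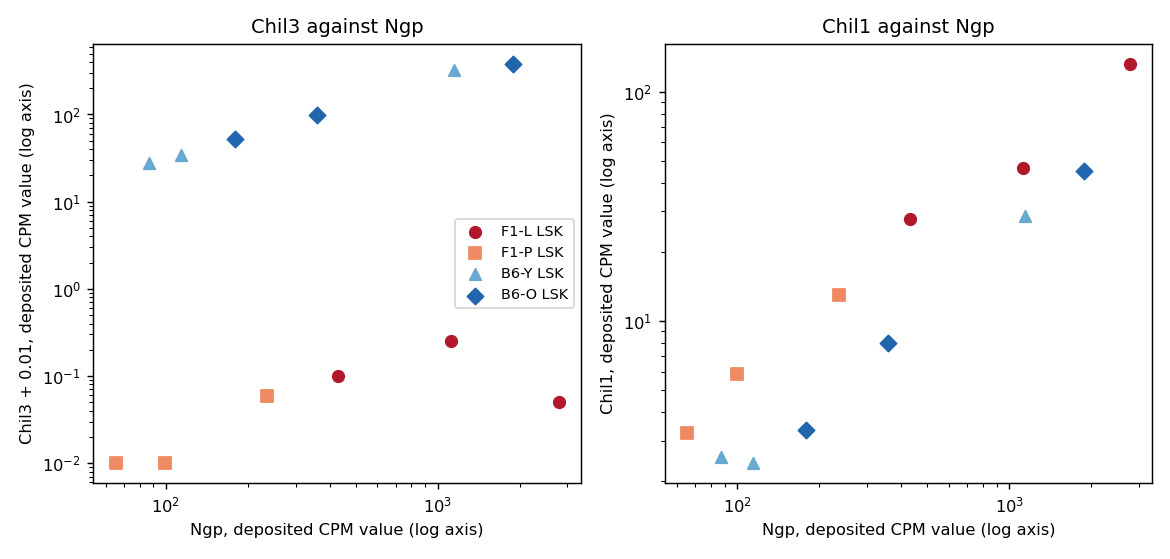
CPM values (log axes) of Chil3 plus 0.01 (left) and of Chil1 (right) against Ngp in the 12 LSK libraries, 1 point per library, coloured by group. Chil3 follows Ngp in the 6 B6 libraries at 20.1 to 31.8% of it and stays at 6 reads or fewer in the 6 F1 libraries, whereas Chil1 follows Ngp in both strains.

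Chil3 lies at chr3:106147554-106167564 on the minus strand (GRCm38), in a cluster of chitinase-like genes. Chia1, an acidic chitinase gene upstream in coordinates (chr3:106113229-106132120), had 0 reads in all 6 F1 LSK libraries and 7 to 12 in each B6 library. Ovgp1, the oviductal glycoprotein gene (chr3:105973711-105987423), had 0 to 6 reads in F1 and 57 to 96 in B6. Chil5, between those genes (chr3:106016919-106032814), had 42 to 193 reads in F1 and 45 to 109 in B6, and the flanking Wdr77 569 to 989 and 1380 to 1974. The read ranges of the strains overlapped for Chil5, whereas every F1 library lay below every B6 library for Wdr77. Gm42890, a processed transcript in the same interval, had 0 to 2 reads in F1 and 8 to 26 in B6. Of the 75-base windows of the Chil3 transcripts, 13% also occur in Chil4 or Gm6522 transcripts, and none of those of the other 9 members occurs in another gene. Reads of both strains were aligned to the C57BL/6 reference, and the part that NZB or NZW sequence differences play in these counts was not tested. Besides Chil3, Trim12a was the other gene with at most 6 reads in every F1 and at least 500 in every B6 LSK library, a limit set after the values were seen. The reverse pattern held for 5 genes.

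In CMPs, the comparison of F1-L with F1-P gave the opposite direction to that in LSK. All 9 genes were lower in F1-L, by a median of 4.24 on the log2 scale (18.9-fold), yet again none passed the limma thresholds, beside 0.00774% of 12926 genes. At an unadjusted p under 0.05, 9 of 9 were lower, beside 5.25% of all genes. The quasi-likelihood test called 0, and the likelihood ratio test and DESeq2 each called 9 lower, beside 2.12% and 2.33% of all genes. The median over all genes was 0.041. Groups did not overlap for 3 of the 9, Mmp8, Mmp9 and Retnlg, beside 6.57% of all genes.

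S100a9 was 94.0, 1801 and 2329 in F1-P CMPs and 23.0, 17.9 and 118 in F1-L CMPs. F1-P 1 lay below F1-L 3, and the other 2 F1-P libraries lay more than an order of magnitude above all of F1-L. The log2 fold change was -4.29 (SE 1.35, limma adjusted p = 0.426). S100a8 was 43.2, 1072 and 1415 against 15.8, 13.1 and 85.6, a log2 fold change of -3.89 (SE 1.43). Ngp was 58.0, 1192 and 1527 against 15.1, 11.1 and 81.5, a log2 fold change of -4.24 (SE 1.38). In the other specific granule genes F1-P 2 and F1-P 3 again stood high. Ltf was 50.7, 1015 and 1424 against 11.4, 9.14 and 62.2, Camp 13.9, 370 and 480 against 4.46, 4.54 and 28.4. Lcn2 was 21.8, 402 and 512 against 6.82, 4.28 and 27.9.

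The 3 genes without overlap were both metalloproteinases and Retnlg. Mmp9 was 11, 194 and 246 in F1-P and 1.45, 0.774 and 8.26 in F1-L, the largest difference of the 9 at -4.60 (SE 1.26, limma adjusted p = 0.394). Mmp8 was 8.16, 144 and 209 against 1.86, 1.03 and 6.52 (log2 fold change -4.21, SE 1.22). Retnlg was 9.60, 191 and 203 against 1.59, 0.826 and 7.46 (-4.45, SE 1.24). The margins were small, since F1-P 1 lay just above F1-L 3 in each.

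Single libraries decided the CMP calls. Without F1-P 1, limma called all 9 lower, beside 3.10% of the 12774 genes then tested, and their median was -5.74. With any other library left out limma called 0 of the 9, and the median was -3.39 without F1-P 3, -3.64 without F1-P 2, -3.79 without F1-L 2, -3.96 without F1-L 1 and -5.09 without F1-L 3. By the likelihood ratio test, the count of 9 went to 0 without F1-L 1 or F1-L 2, to 1 (Mmp8) without F1-P 2 and to 3 (Mmp8, Mmp9 and Retnlg) without F1-P 3. It was 9 without F1-P 1 or F1-L 3. In these reduced fits that test called 0.418 to 8.02% of all genes lower.

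The 2 cell types were also set against each other as a difference between the F1-L minus F1-P changes, each taken within its own table. The CMP change minus the LSK change was -7.48 (Ngp) to -6.86 (S100a8) on the log2 scale, with a median of -7.34. At an unadjusted p under 0.05, 9 of 9 were lower, beside 4.89% of 12627 genes. None passed the limma thresholds (adjusted p = 0.339 to 0.393), beside 0% of all genes, and this fit had no count test. Without F1-P 1 of the CMPs all 9 passed, beside 2.62% of the 12535 genes then tested, with a median of -8.75. With any other library left out 0 passed, and the median was -6.49 without F1-P CMP 3, -6.62 without F1-L LSK 1, -6.76 without F1-P CMP 2 and -8.04 without F1-L CMP 3.

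Markers of mature neutrophils, genes beyond the members, were highest in the libraries where the members were highest. All 10 of them had reads in each group. Their summed CPM value was 291 to 998 in F1-L LSK, 119 to 190 in F1-P, 217 to 553 in B6-Y and 257 to 615 in B6-O, and the highest LSK libraries were F1-L 1 (998), B6-O 3 (615) and B6-Y 2 (553). In CMPs it was 72.5, 604 and 766 in F1-P 1 to 3 and 108, 44.9 and 116 in F1-L 1 to 3. Among lower libraries the order of markers and members could differ. F1-L CMP 1 had more marker signal than F1-P CMP 1, but a lower sum of the 9 genes, 81.5 against 310. In LSK, F1-P 3 had a marker sum of 190 and a member sum of 1266, and B6-Y 1 had 221 and 495. Ly6g, which encodes an epitope of the Gr-1 antigen used to gate granulocytes out, was 44.8, 17.3 and 5.48 in F1-L LSK and 1.20, 2.45 and 5.98 in F1-P LSK. Itgam, the gene of CD11b, was 71.2, 34.6 and 17.7 against 5.52, 7.24 and 13.7. In CMPs Ly6g was 1.25, 27.5 and 38.7 in F1-P and 0.273, 0.258 and 1.94 in F1-L. The same libraries were high for Ly6g as for the members, apart from F1-L 3, which lay below F1-P 3 in LSK. The part of mature neutrophils in the members' values was not tested, and in bulk RNA fewer cells of a type and less RNA per cell cannot be told apart.

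**Figure D5:**
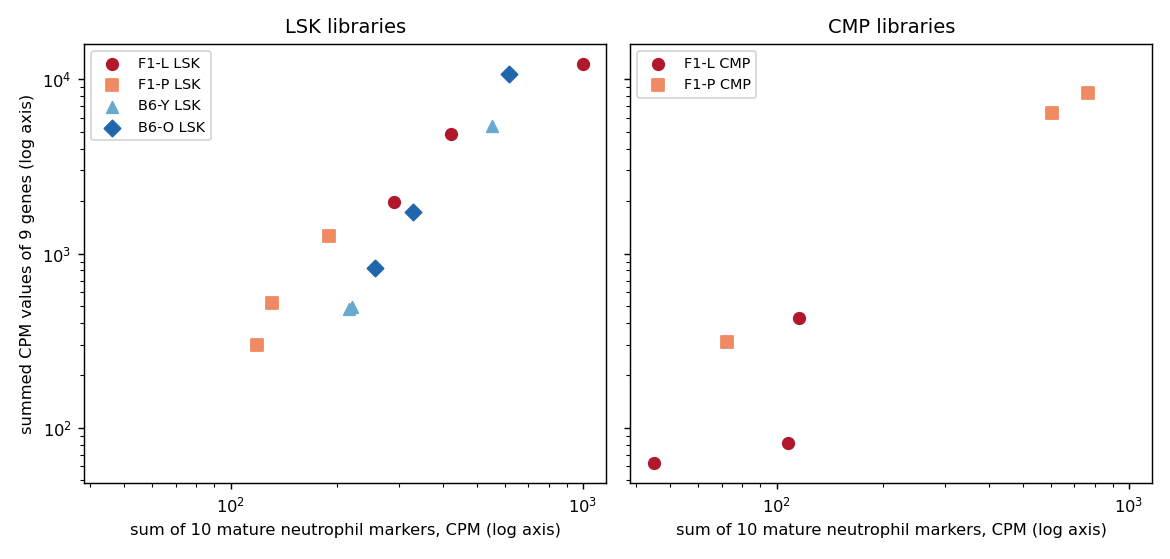
Summed CPM value of 9 late neutrophil genes against that of 10 mature neutrophil markers (log axes), 1 point per library, for LSK (left) and CMP (right). The libraries with the most marker signal, F1-L 1 at 998 in LSK and F1-P 3 at 766 in CMPs, also have the highest sums of the 9 genes, 12251 and 8346.

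Of the marker list, the likelihood ratio test called 9 of 10 higher in F1-L LSK, beside 3.45% of all genes. It called 8 of 9 tested lower in F1-L CMPs, beside 2.12%, and limma called 0 in each. These shares also stand beside later list counts of genes higher in LSK and lower in CMPs by that test. Groups did not overlap for 8 of 10 in LSK and 2 of 9 in CMPs, beside 10.4% and 6.57% of all genes. How far the marker calls rest on single libraries was not tested. Cd177, a neutrophil surface glycoprotein, was 320, 132 and 55.0 in F1-L LSK and 8.20, 13.9 and 28.1 in F1-P LSK. Cxcr2, the chemokine receptor of circulating neutrophils, was 76.5, 16.4 and 12.9 against 2.56, 4.67 and 8.65. Fpr2, a formyl peptide receptor, had a log2 fold change of 2.48 (SE 0.46) and Il1b, the interleukin 1 beta gene, of 2.42 (SE 0.49) in LSK. In CMPs these were -2.67 (SE 0.88) and -2.81 (SE 0.78). The longer list of 29 other late neutrophil genes holds these 10. By the likelihood ratio test, 20 of its 25 tested genes were called higher in F1-L LSK and 15 of 23 lower in F1-L CMPs, with limma medians of 2.16 and -2.57. Ifitm6, an interferon-inducible transmembrane family gene of myeloid cells, had the smallest p of this list in LSK, with a log2 fold change of 2.97 (SE 0.50).

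Primary granule genes, made earlier in maturation, were compared between F1-L and F1-P as well. By the likelihood ratio test and by limma, 0 of 9 tested passed in either cell type. In CMPs 0 of the 9 had an unadjusted limma p under 0.05 and their median log2 fold change was -0.17. Mpo (myeloperoxidase) was 1394, 2665 and 3943 in F1-P CMPs and 2242, 1052 and 3274 in F1-L CMPs, with overlapping groups and a log2 fold change of -0.31 (SE 0.53). Ctsc, the protease that activates the granule proteases, had -0.60 (SE 0.45). In LSK 3 of the 9 were higher at an unadjusted p under 0.05, with a list median of 0.76. Elane (neutrophil elastase) was 245, 90.4 and 178 in F1-L LSK and 9.81, 22.6 and 210 in F1-P LSK, where F1-P 3 overlapped. Prtn3 (proteinase 3) had a log2 fold change of 1.70 (SE 0.69) and Ms4a3, a marker of granulocyte and monocyte progenitors, of 2.11 (SE 0.86). Whether the primary and late granule genes differ in their change was not tested.

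For F1-L against F1-P, limma called none of 10 transcription factors listed for granulocyte development in either cell type. At an unadjusted limma p under 0.05 there were 4 in LSK and 2 in CMPs. By the likelihood ratio test 4 of 10 were called higher in F1-L LSK, which were Cebpe, Cebpd, Cebpa and Spi1. Cebpe, the C/EBP factor of specific granule genes, was 45.2, 19.6 and 7.37 in F1-L and 1.15, 1.63 and 6.32 in F1-P, in the same order of libraries as the members, with a log2 fold change of 2.53 (SE 0.69). Cebpa, which acts earlier, was 91.8, 99.6 and 64.1 against 21.7, 18.9 and 35.3 (1.74, SE 0.26). Cebpd gave 1.73 (SE 0.41), and Spi1, the gene of PU.1, 0.75 (SE 0.19). In CMPs 1 of 10 was called lower, Ets1, at -1.54 (SE 0.51) by limma. The paper names Ets1 among regulators that balance homeostasis and differentiation in stem cells. Cebpe in CMPs was 2.40, 19.1 and 24.0 in F1-P and 5.27, 1.96 and 6.22 in F1-L. F1-P 1 lay within F1-L for it. Between strains limma called 4 of the 10 in F1-P against B6-Y, beside 16.2% of all genes. It called 0 of the 10 in F1-L against B6-O, beside 11.6% of all genes. In F1-P against B6-Y, Spi1 (-0.93, SE 0.13), Irf8 (-0.82, SE 0.14), a factor of the monocyte branch, and Cebpa (-0.99, SE 0.25) fell on the log2 scale. Ets1 (0.78, SE 0.20) rose.

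The rest of the S100 family was measured beside S100a8 and S100a9, and whether the genes differ in their change was not tested. Of 14 other S100 genes, 7 were tested in LSK and 6 in CMPs, with limma medians of 0.16 and -0.11. The likelihood ratio test called 1 of 7 higher in F1-L LSK, S100a6, at 49.6, 23.8 and 20.8 against 8.04, 7.76 and 9.47 (limma log2 fold change 1.68, SE 0.31), and 0 of 6 in CMPs. S100a11 was 37.4, 20.6 and 16.8 against 13, 9.80 and 17.2, with overlap. In LSK 6 of the 7 had a positive log2 fold change and 3 were higher at an unadjusted p under 0.05. In CMPs S100a6 had a log2 fold change of -1.69 (SE 0.86) and S100a11 of -1.14 (SE 0.52), and neither passed. For CMP minus LSK, S100a6 gave -3.37 (SE 0.98, limma adjusted p = 0.46). Among receptors and inhibitors of the member proteins, 2 of 11 tested were called higher in F1-L LSK by that test, Cd14, a co-receptor of Tlr4 in sensing calprotectin and lipopolysaccharide, and Timp3, a metalloproteinase inhibitor. Cd14 was 52.4, 18.6 and 51.2 against 6.06, 10.8 and 14. Tlr4 itself was 21.3, 19.2 and 15.5 against 9.69, 14.3 and 15.5 (0.49, SE 0.21). In CMPs 0 of 10 were called. Of 14 family relatives in sequence, 5 were tested in LSK, with Chil1 and Chit1 called higher, and 4 in CMPs, with Chil1 called lower. Chil1 was 132, 46.5 and 27.9 against 3.22, 5.84 and 13 in LSK, a log2 fold change of 2.94 (SE 0.63), and -3.20 (SE 1.12) in CMPs.

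Other lineages moved in some of the same comparisons. Of the markers tested in CMPs, 5 of 7 for the B lineage and 5 of 6 for erythroid cells were lower in F1-L by the likelihood ratio test, with limma medians of -2.56 and -2.59. Col1a1, a collagen gene of stroma, was the 1 gene of the whole CMP table past the limma thresholds and fell by 3.04 on the log2 scale (SE 0.15, limma adjusted p = 0.0078). The 5 stroma genes summed to 0.155 to 1.09 in F1-L CMPs and to 8.07 to 15.4 in F1-P CMPs. Col1a1 thus lay near 0 in F1-L and met the filter mostly through F1-P libraries, so its call is no separate support for the difference in values. Monocyte markers gave 0 of 6 called in CMPs (median -0.42). Megakaryocyte markers in LSK had a median of 1.73 over the 2 tested, both without overlap between groups, and the likelihood ratio test called 1 of them higher. Itga2b, an integrin gene of megakaryocytes and progenitors, was 44.5, 79.3 and 83.3 in F1-L LSK against 14.3, 15.8 and 22.4 in F1-P LSK (1.90, SE 0.27). That test also called 1 of 5 basophil, mast cell and eosinophil markers higher in LSK (median 0.95), with Prss34 at 1.83 (SE 0.56), and 1 of 7 B lineage markers lower (median -1.11). In LSK it called 1 of 7 monocyte markers higher (median 0.60) and 2 of 6 plasma cell markers lower in F1-L, whose summed value was 9453 to 12532 in F1-L and 14296 to 36851 in F1-P. Erythroid markers summed to 33.1, 38.3 and 2879 over the F1-P LSK libraries as lowest, median and highest, and to 184 to 241 in F1-L. The part of these cells in the members' values was not tested.

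The genes most like the members, by Pearson r, are listed as a description. Their r is with the mean log2 value of the members tested in that cell type, Chil3 included in LSK. Over the 12 LSK libraries and 11321 genes they were Wfdc21 (0.994), Itgb2l (0.987), Mcemp1 (0.983), Lyz2 (0.980), Ifitm6 (0.979), Pilra (0.976), Cd177 (0.975) and Clec4a2 (0.968). Wfdc21 ranged from 1.11 to 64.1 CPM values and Lyz2, a lysozyme gene of granulocytes and macrophages, from 88.3 to 1530. Over the 6 CMP libraries and 10328 genes they were Slfn4 (0.998), Plk3 (0.998), Ifitm6 (0.997), Rhbdf2 (0.997), Rasgrp4 (0.997), Cd177 (0.996), Chil1 (0.996) and Olfm4 (0.996). Ifitm6 and Cd177 were in both sets. With 6 libraries, of which 2 stood high, a high r over CMPs rests on those libraries.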

How the data were processed

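RNA was measured in sorted bone marrow LSK and CMP samples. The authors sequenced single-end reads, aligned them with STAR 2.6 to mm10 (GRCm38), counted reads per gene with HTSeq and, per the labels, used edgeR. The deposited values are CPM values of a scaled library size, treated here as a signal. They are whole multiples of 1 step per column (100.0% of values within 0.1 of a whole read), which gave the recovered reads. Plain CPM had been assumed when the tests were chosen.

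The main test was limma 3.58.1 (lmFit and eBayes with trend) on log2(value + 1), for genes that reached a value of 1 in 3 or more of the fitted samples, with Benjamini-Hochberg adjustment over all genes tested. edgeR 4.0.16 and DESeq2 1.42.0 were run on the recovered reads, and code was tested on simulated data. Fold changes on this scale understate those of low genes. The members, gene lists and tests were chosen with earlier results of these data known. Genes named from a list are at most the 4 with the smallest limma p in the comparison described. Cxcr2, Trim12a, Col1a1, Cebpe in CMPs and the neighbours of Chil3 were named after their values were seen. The genes most like the members needed a mean value of at least 5. Samples were not treated as paired, since correlations of deviations by sample number (-0.454 to 0.622) were not above 0.1 for every pair in any comparison. For F1-P against B6-Y they were 0.326, 0.322 and 0.0676. Limma called 2331 genes there, and 2787 with the replicate number as a block. Whether libraries of the same number shared a batch is not known.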

Additional observations from a re-analysis of the deposited data

How the results depend on the processing

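Counts of members past the limma thresholds were the same under a pseudocount of 0.1, no filter on low values, a mean value of at least 5, median-of-ratios scaling without immunoglobulin genes and, for LSK pairs of groups, 1 fit of all 12 samples. With the replicate number as a block the counts were 0 for LSK F1-L against F1-P and 1 for each comparison between strains, and the block changed no other call. The likelihood ratio test and DESeq2 raised 0 to 9 in LSK and in CMPs for F1-L against F1-P. The cause was not tested. Leaving out 1 library (in this test, a choice made after seeing the data) gave likelihood ratio counts of 1 to 9 in LSK and 0 to 9 in CMPs, and limma counts of 0 to 9 for CMPs and for CMP minus LSK, with 9 without F1-P CMP 1. Limma counts were 0 to 1 between strains, with 0 wherever a B6 library was left out, because Chil3 then fell under the filter. With genes kept in at least 2 samples, an alternative chosen after seeing the data, Chil3 was called without any library, at -7.45 to -6.04 for F1-L against B6-O and -6.72 to -4.96 for F1-P against B6-Y. DESeq2 gave Chil3, Ngp and Camp no p-value in F1-P against B6-Y.

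Log2 fold changes that turned when 1 library was left out ranged as follows. For F1-P against B6-Y they were -1.45 to 0.53 for Ltf, -1.64 to 0.21 for Ngp, -1.34 to 0.43 for Lcn2, -1.62 to 0.07 for S100a8, -1.60 to 0.18 for S100a9, -1.09 to 0.85 for Mmp8, -1.22 to 0.72 for Mmp9 and -1.21 to 0.80 for Retnlg. All 8 were highest without B6-Y 2. For F1-L against B6-O they were -0.02 to 1.84 for S100a8 and -0.06 to 1.88 for S100a9, and for B6-O against B6-Y -0.01 to 2.21 for Camp. The difference of differences of Chil3, with F1 libraries at 0 to 6 reads, was -0.74 by limma, -1.87 to 0.05 with 1 library left out, 2.19 by quasi-likelihood, 2.17 by likelihood ratio and 2.40 by DESeq2. At the spread of the members within C57BL/6 groups (SE 1.03 to 1.29), their differences of 0.88 to 1.54 were not detectable. Over all genes tested, limma called 4 for LSK F1-L against F1-P, the likelihood ratio test 657, DESeq2 734, the fit of all 12 samples 26 and the replicate block 0. For CMPs the counts were 1 by limma, 308 by likelihood ratio, 351 by DESeq2 and 0 with the block or a mean value of at least 5. For B6-O against B6-Y they were 0, 114 and 207, with 13 in the fit of all 12 samples and 1 with median-of-ratios scaling, and for the difference of differences 0, 10 and 29. For F1-L against B6-O, limma called 1667 genes and 978 with a mean value of at least 5.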
